A study of Mus musculus with 6 samples.

Results

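Complex I, the NADH dehydrogenase of the mitochondrial inner membrane, was described here through every gene of the deposited expression table whose symbol starts with Nduf, continues with further letters and ends the stem with a number. This rule on names found 54 genes among the 55471 of the table. By their known roles they fall into 37 structural subunits (7 core and 30 accessory), 8 assembly factors named Ndufaf, 2 genes set apart (Ndufa4 and Ndufa4l2) and 7 copies that the symbol or the annotation marks as duplicates or pseudogenes of a subunit (Ndufa11b, Ndufa12-ps, Ndufab1-ps, Ndufb11b, Ndufb4c, Ndufs5-ps and Ndufs6b). A filter on low counts left 52 of the 54 for testing. Ndufb11b had no count in any library, and Ndufa11b was untested with 0.0533 CPM in Sham library 1, 0.064 CPM in MR library 2 and 0 elsewhere.

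The study sequenced poly(A) RNA of whole left atria from adult male C57BL/6J mice, a wild-type inbred strain with no transgene, operated on at 10 weeks of age. In 3 mice the anterior leaflet of the mitral valve was punctured under echocardiographic guidance, which produces mitral regurgitation (MR), a backflow of blood into the left atrium. In the other 3 (Sham) the cardiac apex was punctured and the leaflet stayed intact. Atria were taken 2 weeks after surgery, with 1 library for each of 3 biological replicates in each group, and the comparison asks how the atrial transcriptome differs under regurgitation.

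Complex I takes electrons from NADH and passes them through a flavin and a chain of iron-sulfur clusters to ubiquinone, and it pumps protons across the inner membrane. It is shaped like an L: the peripheral arm holds the NADH-binding (N) module and the quinone-binding (Q) module, and the membrane arm holds 4 modules named after the mitochondrially encoded proteins ND1, ND2, ND4 and ND5. Most subunits are encoded in the nucleus, and dedicated assembly factors, which are not part of the finished enzyme, join the modules. Working heart muscle is rich in mitochondria and draws most of its ATP from this chain. The roles given below were worked out largely on the bovine enzyme and in human cells, and are background.

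Gene counts summed to between 14124407 and 20039490 per library. Levels are CPM, counts divided by a library size scaled with TMM, a method that sets the bulk of genes equal between libraries; its factors were 0.914 to 0.941 in Sham and 1.05 to 1.11 in MR. Fold changes are MR against Sham on the log2 scale, each with its standard error (SE) and an adjusted p from edgeR's quasi-likelihood test over 15218 genes, with 0.05 as the threshold. Of these genes 22.4% passed: 10.6% were called lower and 11.8% higher in MR, and 49.87% had a fold change below 0. The cardiomyocyte markers Myh6, Actc1, Tnnt2, Tnni3, Myl7, Myl4, Ryr2, Actn2, Ttn, Pln and Tnnc1 were present in every library, and so were the atrial markers Nppa and Sln. The ventricular marker Irx4 was at 0 in all 6 libraries, so the tissue carried its labelled identity.

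Nuclear genes of complex I were lower in MR nearly throughout on this scale. Of the 37 structural subunits 31 fell, 0 rose and 6 did not pass the test, against 10.6% of all tested genes called lower. At an unadjusted p of 0.05 in the same test the counts were 34 lower and 0 higher. No share of all tested genes was worked out at that unadjusted threshold. All 37 fold changes were below 0, with a median of -0.51 and a range from -0.88 for Ndufb10 to -0.063 for Ndufa7, while the median of all tested genes was 0.0016. In 33 of the 37 every MR library lay below every Sham library, as in 21.2% of all tested genes. Of the 8 Ndufaf assembly factors 3 fell, 0 rose and 5 did not pass, with a median of -0.37. The authors' deposited table lists 34 of the 37 subunits and 6 of the 8 Ndufaf genes as lower and 0 as higher at an adjusted p below 0.05. The share of all genes that the authors' values call lower was not worked out. The 10.6% above belongs to edgeR's calls and is no background for theirs.

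That direction depends on what the libraries are scaled to. With plain library totals 34 of the 37 subunits stayed below 0 and 15 were called lower, on the deposited TPM values 33 stayed below 0 and 3 were called lower (Ndufa9, Ndufb8 and Ndufb10), and with libraries scaled to 11 cardiomyocyte markers, an alternative chosen after seeing the data, 10 stayed below 0 with 0 called lower and 3 called higher (Ndufa3, Ndufa7 and Ndufb2). Calls over all genes shifted as well: with each of these scalings more genes were called higher than lower (counts in the last section). With the cardiomyocyte markers most of all tested genes were called higher, so those 3 calls do not set the subunits apart. These scalings also moved the median of all tested genes, to 0.21, 0.28 and 0.59 on the log2 scale. Set against that median, the median subunit stood at -0.51 with TMM, -0.52 with library totals, -0.45 on TPM and -0.52 with the cardiomyocyte markers. Rescaling the same counts shifts all genes by nearly the same amount. The likeness of these values between scalings of the counts is therefore built in and is no separate evidence. Every "fell" and "lower" below is on the TMM scale.

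**Figure D1:**
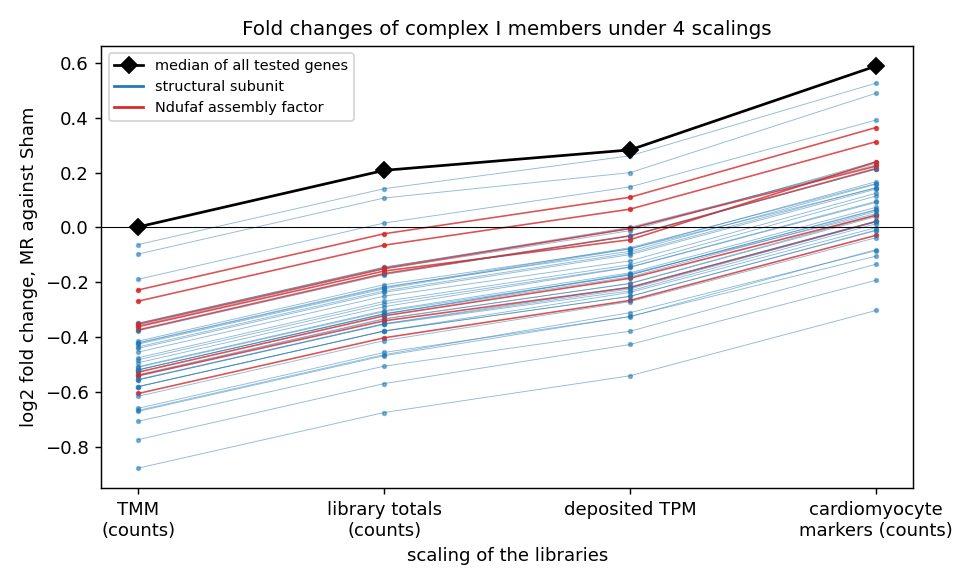
Log2 fold changes of MR against Sham (vertical axis) for the 37 structural subunits (blue lines) and the 8 Ndufaf assembly factors (red lines) under 4 scalings of the libraries (horizontal axis), with the median of all tested genes as black diamonds. All lines lie below 0 with TMM and most above 0 with the cardiomyocyte markers, where the subunits' median was 0.065, and every line stays below the black diamonds throughout. Rescaling the same counts moves lines and diamonds nearly alike, so that position is largely fixed between the scalings of counts.

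Markers of heart muscle moved with the complex I genes. Of the 11 cardiomyocyte markers 8 fell and 0 rose (median -0.56), none was at 0, and their summed level was 70560 to 78140 CPM in Sham and 42660 to 59890 CPM in MR. Markers of several other cell types were more often higher: 4 of 5 endothelial markers (summed 714.6 to 894 CPM in Sham, 1010 to 1350 CPM in MR), 5 of 7 macrophage markers (217 to 233 and 287 to 368 CPM), 3 of 3 mesothelial markers (99.4 to 186 and 345 to 561 CPM) and 2 of 7 fibroblast markers (2005 to 2485 and 2495 to 3340 CPM) rose in MR. Of the smooth muscle and pericyte markers 2 of 5 fell and 0 rose, and 4 of 4 red cell markers rose (257 to 325 CPM in Sham, 399 to 528 CPM in MR). Of 6 white fat markers 4 could be tested and 3 were higher. Their summed level was 308 and 397 CPM in MR libraries 1 and 2, against 138 CPM in MR library 3 and 114 to 144 CPM in Sham. The part of these other cell types in the complex I results was not tested. In whole tissue, fewer muscle cells and less complex I RNA per muscle cell cannot be told apart. Within each library, the mean log2(TPM + 1) of the subunits minus that of the cardiomyocyte markers was -3.47, -3.72 and -3.77 in Sham libraries 1 to 3 and -3.66, -3.48 and -3.55 in MR libraries 1 to 3, so on that scale the groups overlapped and their means differed by 0.0898.

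The libraries were not alike within groups. Sham library 1 was the highest of the 6 for 33 of the 37 subunits, and MR library 2 was the lowest for 30. Summed over the subunits, the level was 6499, 5464 and 5698 CPM in Sham libraries 1 to 3 and 4326, 3687 and 4243 CPM in MR libraries 1 to 3, without overlap. As a share of each library's raw total, the subunits took 0.609%, 0.499% and 0.535% of the counts in Sham and 0.462%, 0.408% and 0.442% in MR. Transcripts of ribosomal RNA type took 2.15% to 3.96% of counts in Sham and 0.606% to 0.883% in MR; their part in these results was not tested.

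**Figure D2:**
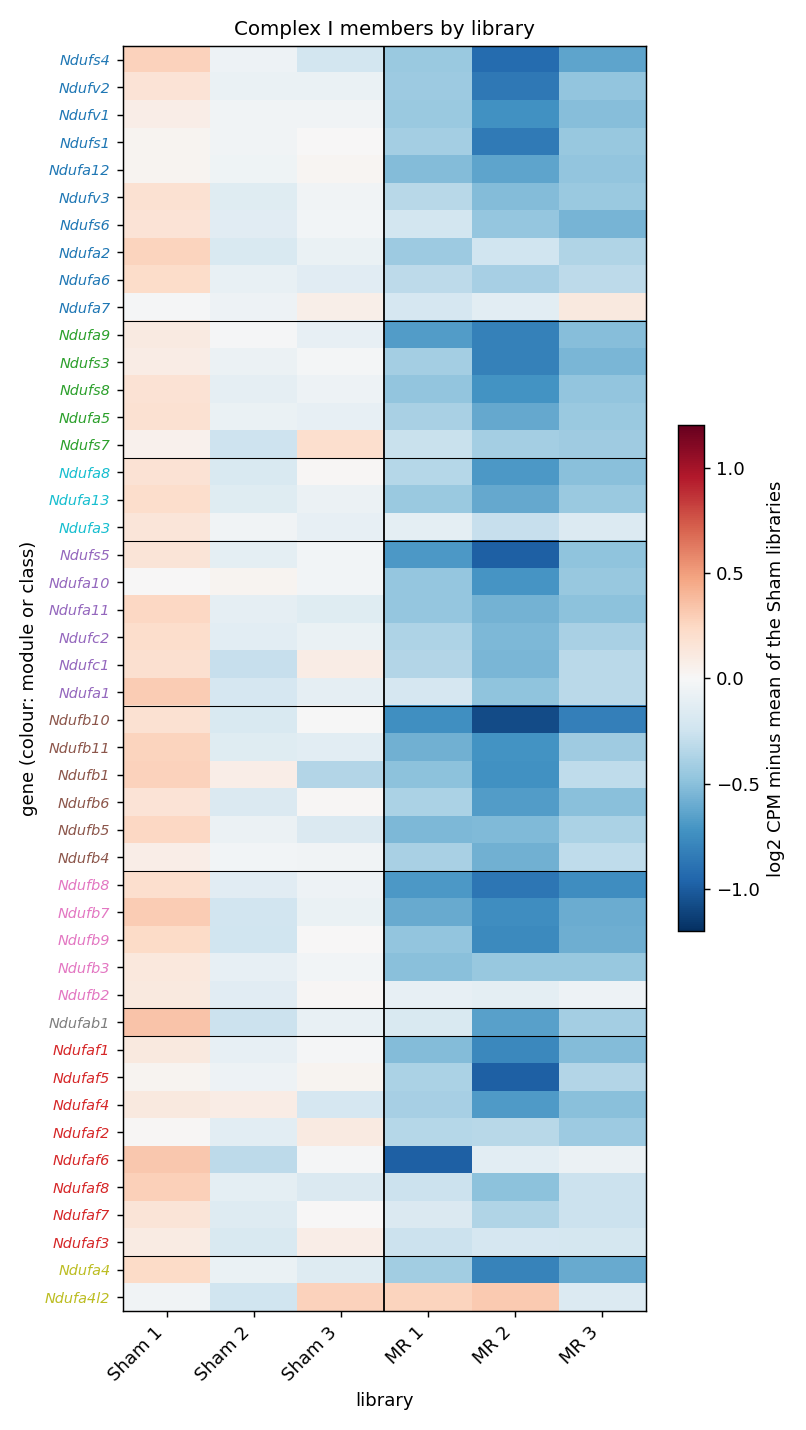
Level of 36 of the 37 structural subunits, each Ndufaf assembly factor, Ndufa4 and Ndufa4l2 (rows, coloured by module or class) in each library (columns), as log2 CPM on TMM-scaled library sizes minus the mean of the 3 Sham libraries. Blue fills the MR columns and is deepest in MR library 2, while Sham library 1 is the reddest column; with libraries scaled to cardiomyocyte markers the median subunit would instead lie at 0.065.

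The core subunits carry the flavin, the clusters and the quinone pocket, and all 7 of 7 fell (median -0.56). Each of them had every MR library below every Sham library, as in 21.2% of all tested genes. In the NADH-binding module, Ndufv1 (ENSMUSG00000037916), which binds NADH and the flavin, was at 598, 550.1 and 551 CPM in Sham libraries 1 to 3 and at 415, 343 and 398 CPM in MR libraries 1 to 3. The fall of Ndufv1 was 0.56 ± 0.11 on the log2 scale (SE; edgeR adjusted p = 0.00815). Ndufv2, its neighbour with an iron-sulfur cluster of its own, went from 197, 167 and 166 CPM in the Sham libraries to 130.3, 97.3 and 127 CPM in the MR libraries. Ndufs1, the largest subunit of the module and a carrier of several clusters, went from 412, 393 and 405 CPM to 304, 224 and 295 CPM. The Sham values of Ndufs1 span a narrow range, and MR library 2 stands apart below the other MR libraries in both genes. Their fold changes were -0.58 ± 0.13 for Ndufv2 (edgeR adjusted p = 0.0127) and -0.56 ± 0.12 for Ndufs1 (adjusted p = 0.0133).

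In the quinone-binding module, Ndufs7, which holds the last cluster before the quinone, was at 108, 87.3 and 119.6 CPM in Sham and 86.5, 78.5 and 77.5 CPM in MR. The groups of Ndufs7 all but touch, since Sham library 2 exceeds MR library 1 by less than 1 CPM. Ndufs7 fell by 0.38 ± 0.12, the smallest fall of the core and close to the threshold (edgeR adjusted p = 0.0487; 0.114 to 0.15 without any 1 of Sham libraries 1 and 3 or MR libraries 2 and 3). Ndufs3, an early building block of the module, was at 167, 149.9 and 155 CPM in Sham and 118, 89.9 and 107 CPM in MR. Ndufs8, with a pair of clusters on the way to the quinone, was at 228, 189 and 194 CPM in Sham and 147, 123 and 147 CPM in MR. Both were clearly separated between groups, with fold changes of -0.58 ± 0.11 (edgeR adjusted p = 0.00842) and -0.55 ± 0.11 (adjusted p = 0.00948).

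Accessory subunits surround the core and stabilise it. Of the 30 accessory subunits 24 fell and 6 did not pass (median -0.50). In 26 all MR libraries lay below all Sham libraries, as in 21.2% of all tested genes. The largest fall was that of Ndufb10 (ENSMUSG00000040048), a membrane-arm subunit with disulfide-bonded cysteines on the intermembrane side. It stood at 448, 348 and 392 CPM in the Sham libraries and at 236, 187 and 222 CPM in the MR libraries, so its highest MR value was well below its lowest Sham value. The fall was 0.88 ± 0.13 on the log2 scale, to 54.4% of the Sham level (edgeR adjusted p = 0.00267), and 1.64% of all tested genes had a lower fold change. Ndufb8 (ENSMUSG00000025204), whose protein is widely used in blots as a sign of assembled complex I, was at 149, 118 and 124 CPM in Sham and 80.4, 71.3 and 77.4 CPM in MR. Ndufb8 fell by 0.77 ± 0.11 (adjusted p = 0.00245), to 58.5% of Sham, with 3 tightly grouped MR libraries.

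Further out on the membrane arm, Ndufb7, a cysteine-paired subunit facing the intermembrane space, was at 195, 135 and 149 CPM in Sham and 104, 94.1 and 105 CPM in MR. Sham library 1 stood above the other Sham libraries for this gene, and the fold change was -0.67 ± 0.14 (edgeR adjusted p = 0.0093). Ndufb3, a small membrane subunit, was at 69.0, 59.2 and 62.0 CPM in Sham and 44.7, 46.0 and 46.2 CPM in MR. The 3 MR libraries of Ndufb3 lay within 2 CPM of each other, and it fell by 0.48 ± 0.09 (adjusted p = 0.00696). Ndufs5, another subunit with paired cysteines, in the ND2 module, was at 53.1, 43.9 and 46.4 CPM in Sham and 29.5, 24.2 and 34.0 CPM in MR. Its fall of 0.71 ± 0.13 (adjusted p = 0.00622) ranked behind Ndufb10 and Ndufb8 alone. Ndufa10, a member of the same module with a fold like that of nucleoside kinases, was at 233, 236 and 226 CPM in Sham and 168, 142 and 169 CPM in MR. Its Sham libraries nearly coincided, and it fell by 0.54 ± 0.10 (adjusted p = 0.00676).

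On the peripheral arm, Ndufa9, a nucleotide-binding subunit at the joint between the arms, was at 173, 159 and 150.0 CPM in Sham and 101, 91.4 and 113 CPM in MR. Ndufa12, which sits between the N and Q modules, was at 114, 107 and 113 CPM in Sham and 77.8, 71.9 and 80.0 CPM in MR. Both separated the groups with little spread inside them, and the fold changes were -0.66 ± 0.11 for Ndufa9 (edgeR adjusted p = 0.00415) and -0.54 ± 0.09 for Ndufa12 (adjusted p = 0.00432). Ndufb11 had the highest level per length of the accessory subunits, at a mean of 581 TPM, and was at 335, 252 and 256 CPM in Sham and 186, 169.5 and 208 CPM in MR. It fell by 0.58 ± 0.13 (adjusted p = 0.0142), with Sham library 1 far above the other 2.

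Of the accessory subunits 6 missed the threshold, among them the smallest differences of the complex. Ndufa7 (fold change -0.06, edgeR adjusted p = 0.692) and Ndufb2 (-0.10, 0.595) had overlapping groups, and Ndufa3 (-0.19, 0.199), Ndufa2 (-0.36, 0.0652) and Ndufa1 (-0.35, 0.0885) did not overlap. Ndufa7 was at 49.8, 48.2 and 52.9 CPM in Sham and 43.7, 46.2 and 54.5 CPM in MR, with MR library 3 the highest of all 6. Ndufa7, Ndufa3, Ndufa2 and Ndufa1 were singled out after their values were seen. Ndufb2, the accessory subunit with the lowest level per length, was at 13, 10.9 and 12.2 CPM in Sham and 11.2, 11.1 and 11.5 CPM in MR. Its mean of 4.76 TPM rests on a long gene model (39.8 counts equal 1 TPM, against 5.45 for Ndufb3). In the annotation used here, exons of Ndufb2 overlap those of Braf and Gm16272 on the opposite strand and of Gm42420 on the same strand. Ndufab1, the mitochondrial acyl carrier protein, which also serves fatty acid and iron-sulfur cluster synthesis outside complex I, was at 158, 104 and 118 CPM in Sham and 109.9, 79.3 and 94.0 CPM in MR. MR library 1 of Ndufab1 lay above Sham library 2, and the fold change of -0.43 ± 0.16 did not pass (adjusted p = 0.0882).

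**Figure D3:**
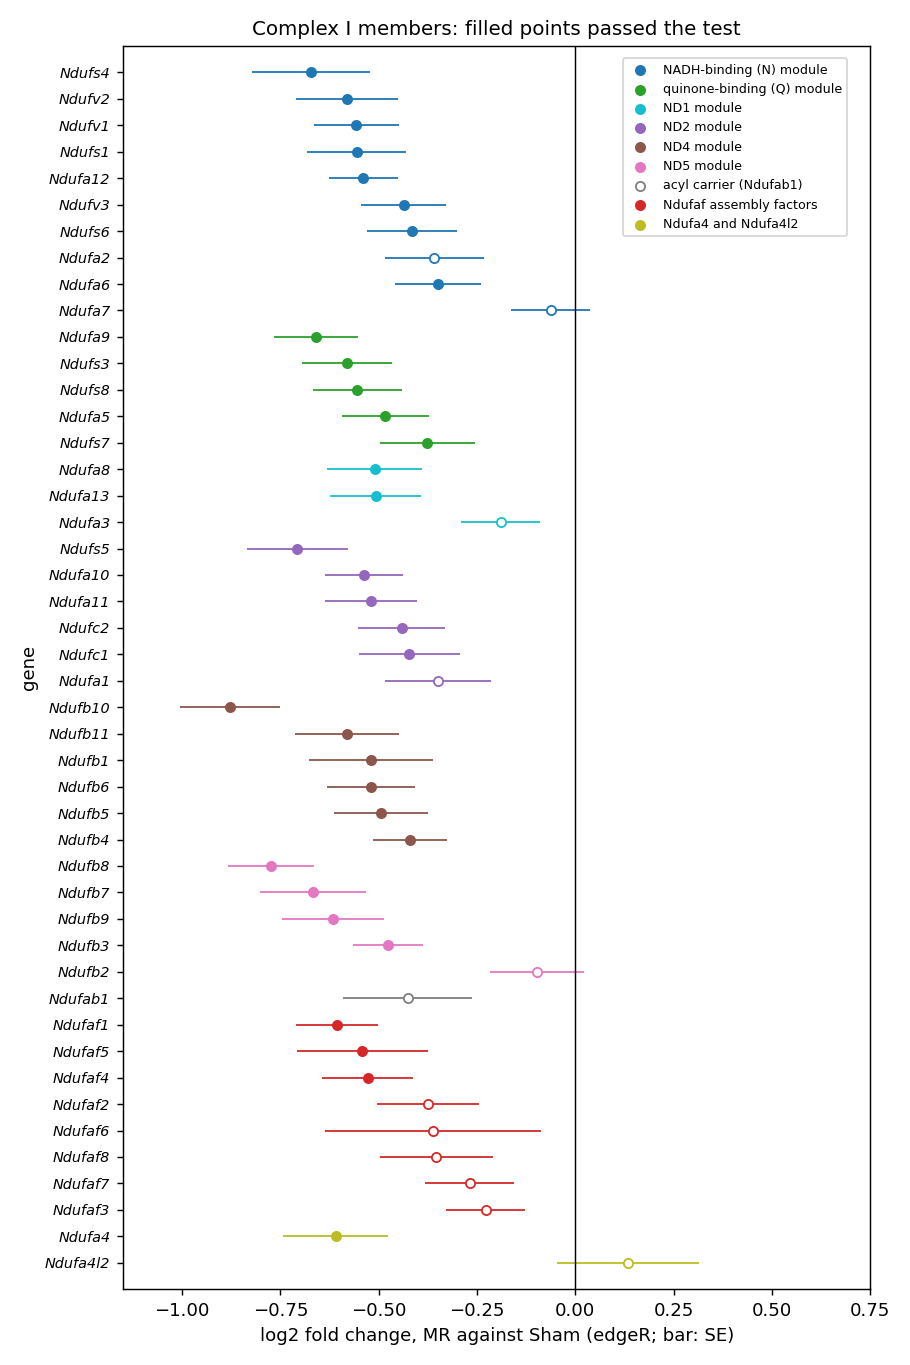
Log2 fold change of MR against Sham from edgeR on the TMM scale (horizontal axis; bars are 1 SE, 3 libraries a group) for 36 of the 37 subunits, each Ndufaf assembly factor, Ndufa4 and Ndufa4l2 (vertical axis, coloured by module or class), filled where the adjusted p was below 0.05. Points of every module lie on both sides of -0.5, Ndufb10 is farthest left at -0.88, and Ndufa4l2 is the only point right of 0 on this scale; with libraries scaled to cardiomyocyte markers 10 of the 37 subunits stayed below 0.

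The falls were spread over the whole enzyme. In the N module 8 of 10 subunits fell (median -0.49) and in the Q module 6 of 6 (median -0.52). On the membrane arm, 2 of 3 fell in the ND1 module (-0.51), 5 of 6 in ND2 (-0.48), 6 of 6 in ND4 (-0.52) and 4 of 5 in ND5 (-0.62). Taken by arm, 14 of 16 peripheral subunits (median -0.51) and 17 of 20 membrane subunits (median -0.51) fell, and Ndufab1 was left out of both because it occurs in both. Differences between modules were not tested. The subunit genes lie on 16 chromosomes, 2 of them (Ndufa1 and Ndufb11) on the X chromosome. Exons of 17 of the 37 overlap another annotated gene, 15 on the opposite strand and 3 on the same (Ndufb8, Ndufb9 and, with both kinds, Ndufb2). No source used here says whether reads were counted by strand, and reads of such pairs may be mixed. Counting by strand would not separate the same-strand pairs. The same annotation types the Ndufb1 entry as a long non-coding RNA of a bidirectional promoter, with exons overlapping Cpsf2 on the opposite strand. It was kept among the subunits by its symbol, and was called lower.

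The transcripts differed widely in level per length although the finished enzyme holds most subunits in equal number. Mean TPM over the 6 libraries ran from 4.76 (Ndufb2) to 581 (Ndufb11), with a median of 137 over the 37 subunits. Ndufaf genes were lower, from 5.58 (Ndufaf6) to 45.4 TPM (Ndufaf8), with a median of 24.4. Over the subunits 1 TPM equalled from 3.01 (Ndufa1) to 57.9 counts (Ndufs1), so these levels also rest on the length of each gene model. The part of that length in the spread was not tested. On the TPM scale the groups mostly overlapped: all MR libraries lay below all Sham libraries in 6 of the 37 subunits and above them in 2. The share of all tested genes with such separation was worked out for CPM only, so these counts have no background here. The sum over the subunits was 8665, 6882 and 7783 TPM in Sham libraries 1 to 3 and 7344, 6487 and 6779 TPM in MR libraries 1 to 3.

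**Figure D4:**
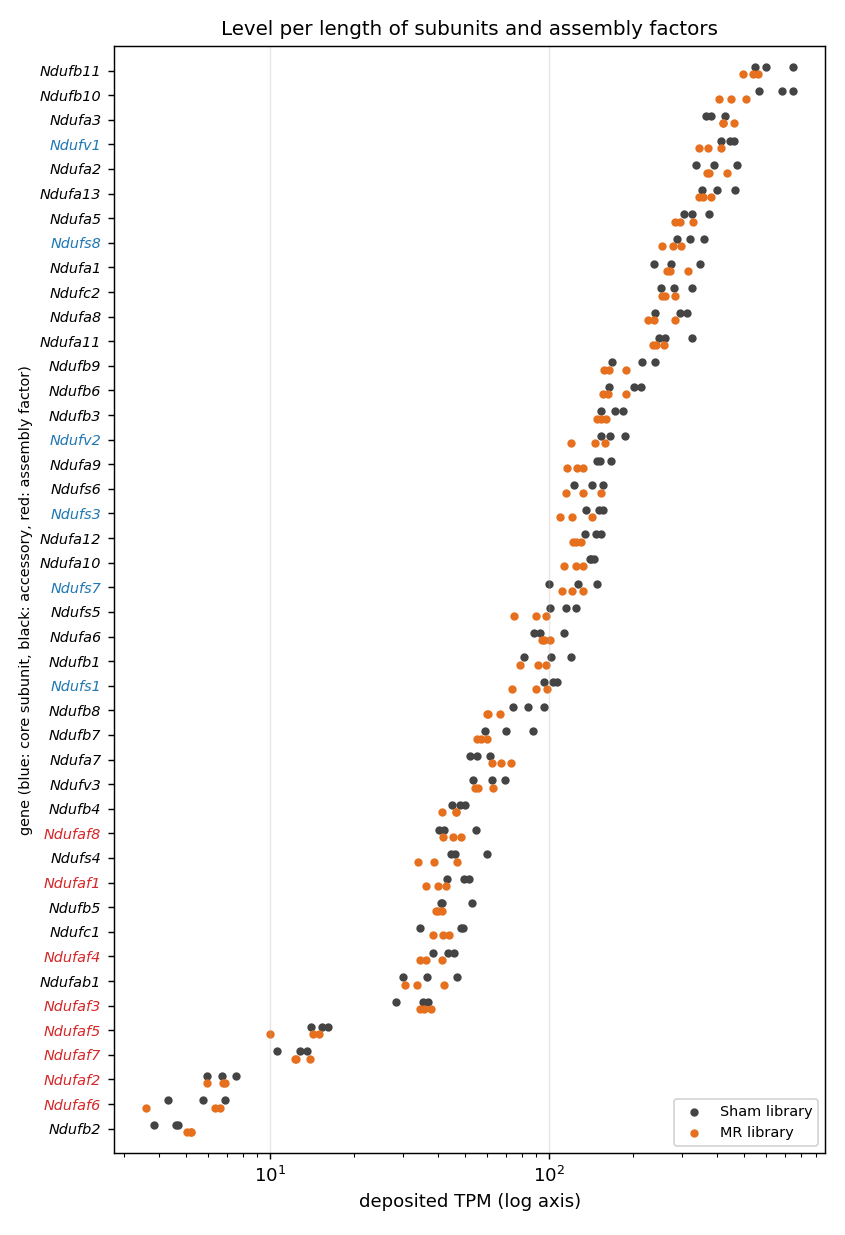
Deposited TPM (horizontal log axis) of 36 of the 37 structural subunits and 8 Ndufaf assembly factors (vertical axis, ordered by mean; core subunits in blue, accessory in black, assembly factors in red), with 1 point per library, grey for Sham and orange for MR. Assembly factors gather in the lower part, between 5.58 and 45.4 TPM on average, and on this scale grey and orange points overlap for most genes.

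The Ndufaf assembly factors build the modules and leave before the enzyme is complete. Ndufaf1, part of the MCIA complex that assembles the ND2 module, was at 38.1, 32.8 and 34.9 CPM in Sham and 24.5, 20.6 and 24.5 CPM in MR. It fell by 0.61 ± 0.10 (edgeR adjusted p = 0.00513), with every MR library well below Sham. Ndufaf4, which with Ndufaf3 accompanies the early Q module, was at 88.0, 86.2 and 70.4 CPM in Sham and 61.7, 50.5 and 57.4 CPM in MR, and fell by 0.53 ± 0.12 (adjusted p = 0.0122). Ndufaf3 itself was at 31.6, 26.1 and 31.3 CPM in Sham and 24.7, 25.7 and 25.5 CPM in MR, a difference of -0.23 ± 0.10 that did not pass (adjusted p = 0.124). The lowest Sham library of Ndufaf3 exceeded its highest MR library by less than 1 CPM.

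Ndufaf5, which hydroxylates an arginine of Ndufs7, was at 13.5, 12.7 and 13.6 CPM in Sham and 10.2, 6.72 and 10.4 CPM in MR. MR library 2 was the lowest for Ndufaf5, and its fall of 0.54 ± 0.17 lay close to the threshold (edgeR adjusted p = 0.043; 0.082 to 0.116 without any 1 of Sham libraries 1 to 3 or MR library 2). Ndufaf8, the partner that stabilises Ndufaf5, was at 22.5, 17.1 and 16.4 CPM in Sham and 15.4, 13.1 and 15.4 CPM in MR, and Ndufaf7, an arginine methyltransferase, was at 23.4, 18.8 and 21.0 CPM in Sham and 18.6, 16.4 and 17.6 CPM in MR. Neither passed, at -0.35 ± 0.14 (adjusted p = 0.103) and -0.27 ± 0.11 (adjusted p = 0.116), though neither overlapped. Ndufaf2, a paralogue of Ndufa12 that holds its place during late assembly, was at 9.86, 8.97 and 10.6 CPM in Sham and 7.72, 7.75 and 7.23 CPM in MR, a difference of -0.37 ± 0.13 (adjusted p = 0.0643). Ndufaf6, needed for ND1 synthesis, was the least abundant per length and stood at 4.21, 2.70 and 3.33 CPM in Sham and 1.70, 3.07 and 3.19 CPM in MR. Among the 8 factors the groups overlapped in Ndufaf6 alone, with MR library 1 low and MR libraries 2 and 3 in the Sham range (-0.36 ± 0.28, adjusted p = 0.369). In the other 7 all MR libraries lay below all Sham libraries, as in 21.2% of all tested genes.

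Subunits and Ndufaf genes can be set side by side within a library, where any scaling cancels. The mean log2(TPM + 1) of the 37 subunits exceeded that of the 8 Ndufaf genes by 2.83, 2.79 and 2.77 in Sham libraries 1 to 3 and by 2.78, 2.67 and 2.69 in MR libraries 1 to 3. MR library 1 lay inside the Sham range, so the groups overlapped, and the mean difference between groups was -0.084 (with medians over the genes, -0.18). The share called differed (31 of 37 against 3 of 8), and a difference between the lists was not tested.

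Of 13 further assembly factors listed by name, 12 were in the table, and 5 fell, 0 rose and 7 did not pass (median -0.28). Tmem70, which serves complex I and ATP synthase assembly, was at 77.5, 72.2 and 67.8 CPM in Sham and 53.8, 46.2 and 55.6 CPM in MR (-0.48 ± 0.10, edgeR adjusted p = 0.01). Ecsit and Tmem126b, partners of Ndufaf1 in the MCIA complex, were at 46.4, 45.2 and 52.9 and at 48.0, 46.3 and 39.9 CPM in Sham and at 42.0, 31.6 and 34.9 and at 36.2, 32.5 and 37.1 CPM in MR. They fell by 0.41 ± 0.12 (adjusted p = 0.0313) and 0.35 ± 0.10 (adjusted p = 0.0331), and neither had overlapping groups. Acad9, the fourth MCIA member, which is also an acyl-CoA dehydrogenase, did not pass (-0.19, adjusted p = 0.225).

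The 7 ND subunits encoded by mitochondrial DNA form the proton-pumping core of the membrane arm. None of the 7 passed edgeR's test, and 3 had an unadjusted p below 0.05 in it. As lower genes DESeq2 called 3 (mt-Nd1, mt-Nd2 and mt-Nd4) and limma-voom called 1 (mt-Nd1). The shares of all genes at that unadjusted threshold, or called lower by DESeq2 and limma-voom, are not given here. These counts therefore lack a background. In 4 of the 7 all MR libraries lay below all Sham libraries, as in 21.2% of all tested genes. All 7 fold changes were below 0 (median -0.41). The most abundant per length, mt-Nd1, was at 28360, 27880 and 22790 CPM in Sham and 17580, 17040 and 21360 CPM in MR (-0.50 ± 0.19, edgeR adjusted p = 0.0855). Values of mt-Nd2 were 17410, 21210 and 17410 CPM in Sham and 14460, 12820 and 16460 CPM in MR, those of mt-Nd4 18220, 19810 and 15520 CPM and 12980, 12340 and 14940 CPM, and those of mt-Nd5 21290, 25560 and 21450 CPM and 19160, 18170 and 21180 CPM. In these 4 abundant genes the MR libraries lay below Sham, with MR library 3 the closest to it. The remaining 3 were scarcer per length (966 to 1600 TPM, against 25670 to 53010) and more scattered. Levels were 116, 146 and 198 CPM in Sham and 149.8, 138 and 129 CPM in MR for mt-Nd3, 415, 176 and 191 CPM and 124, 160.4 and 176 CPM for mt-Nd4l, which overlaps mt-Nd4, and 419, 623 and 262 CPM and 339, 237 and 338 CPM for mt-Nd6, the single ND gene on the other strand. A single Sham library stood out in each: library 3 for mt-Nd3, library 1 for mt-Nd4l and library 2 for mt-Nd6.

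Nuclear subunits of complexes II to V, the rest of the respiratory chain, were lower to a similar degree: 37 of 45 fell, 0 rose and 8 did not pass (median -0.57). Within libraries, mean log2(TPM + 1) of the complex I subunits minus that of complexes II to V was -1.26 ± 0.0397 for the Sham libraries and -1.23 ± 0.0214 for the MR libraries (SD over 3), so the balance between them moved by 0.029, less than the SD among the Sham libraries and more than that among the MR libraries. Against the mt-Nd genes the same difference moved by -0.10, from -5.87 ± 0.188 to -5.97 ± 0.088.

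**Figure D5:**
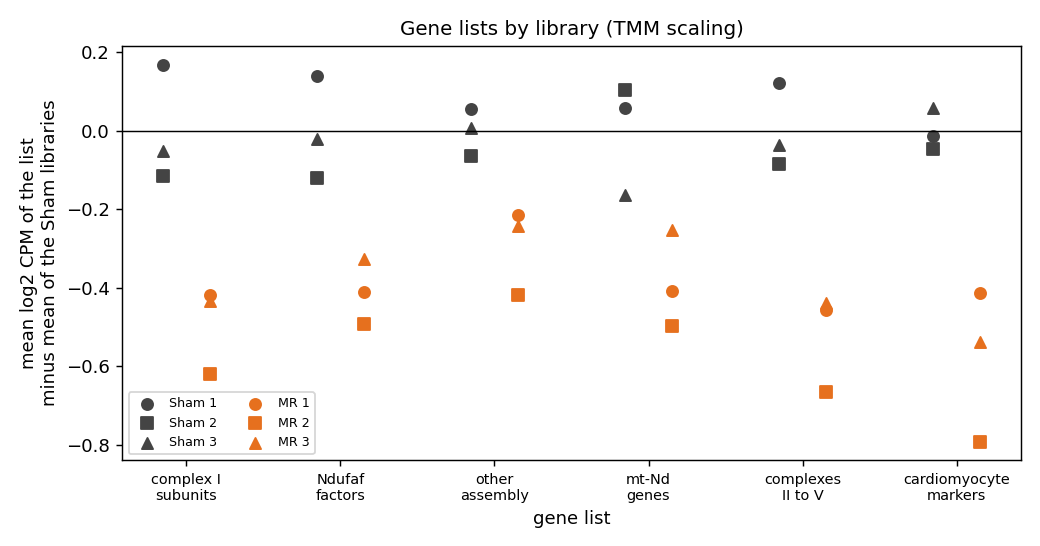
Mean log2 CPM of 6 gene lists (horizontal axis) in each library on the TMM scale, minus the mean of the 3 Sham libraries (vertical axis), grey for Sham and orange for MR, with the shape giving the library number. In each list the MR libraries lie below the Sham libraries and MR library 2 is lowest, and the cardiomyocyte markers lie as low as the complex I subunits; with the libraries scaled to those markers the median subunit lay at 0.065.

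Of the genes set apart, Ndufa4, named as a complex I subunit but now placed in complex IV, was at 243, 195 and 186 CPM in Sham and 155, 119 and 136 CPM in MR and fell by 0.61 ± 0.13 (edgeR adjusted p = 0.0121). Its paralogue Ndufa4l2, known as a target of the hypoxia factor HIF, was at 7.94, 6.93 and 9.91 CPM in Sham and 9.81, 10.2 and 7.28 CPM in MR. The groups of Ndufa4l2 overlapped, and the difference of 0.13 ± 0.18 did not pass (adjusted p = 0.629). Among the copies 5 could be tested and 2 were called lower, Ndufab1-ps (-0.97) and Ndufs6b (-0.63), and the other 3 (Ndufa12-ps, Ndufb4c and Ndufs5-ps) lay between -0.39 and -0.04. They resemble their parent genes so closely that reads may be split between copy and parent, so their values are uncertain. To that extent the values of Ndufa12, Ndufab1, Ndufb4, Ndufs5 and Ndufs6 are uncertain too. Over all libraries Ndufa12-ps had a mean of 19.2 CPM, beside 93.9 CPM for Ndufa12.

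Since the subunit genes moved together, their promoters were read for binding motifs of regulators known for respiratory genes. RefSeq windows of 300 bases (build GRCm38.p6, an older build than the GRCm39 named for the deposited counts) were at hand for 33 of the 37 subunits and 7 of the 8 Ndufaf genes; those without an entry included Ndufa2, Ndufb9, Ndufs1 and Ndufaf6, and Ndufa4l2 and the copies had none either. The NRF1 motif, which reads GCGCA, any base and GCGC, searched on both strands like the others, was in 7 of the 33 subunits (21.2%), against 5.19% of 27025 genes with a window. A YY1 motif, AAGATGGCG, was in 5 (15.2%, against 1.64%), 23 to 36 bases after the annotated start; its letters include ATGGCG, which can also open a coding sequence, and whether these matches do so was not tested. The ETS motif CCGGAAGT was in 1 (3.03%, against 4.31%), and the ERR motif TCAAGGTCA in 0 (against 0.466% of genes). Among the 7 Ndufaf windows NRF1 matched 2 (28.6%) and YY1 matched 1 (14.3%). Subunit windows were also richer in G and C (median 59.3%, against 52.7%), whose part in these shares was not tested, and a match is a stretch of letters, not a shown binding site.

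Windows of 4 subunits are printed 5′ to 3′ on the strand of the gene, the minus strand in each case, with motif matches in capitals. Ndufb4 (chr16:37654319-37654618) held 3 NRF1 matches, the most of any subunit. Ndufs6 (chr13:73328433-73328732) held an NRF1 and a YY1 match. Ndufs5 (chr4:123718137-123718436), with the third largest fall, held 1 NRF1 match. Ndufb10 (chr17:24724374-24724673), with the largest fall, held none of the 4 motifs in this window.
Ndufb4: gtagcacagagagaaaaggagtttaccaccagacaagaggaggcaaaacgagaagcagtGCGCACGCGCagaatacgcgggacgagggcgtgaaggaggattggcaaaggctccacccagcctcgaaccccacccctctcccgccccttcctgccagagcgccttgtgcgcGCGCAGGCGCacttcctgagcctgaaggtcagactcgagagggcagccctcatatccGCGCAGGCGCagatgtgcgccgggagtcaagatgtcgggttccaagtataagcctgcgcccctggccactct
Ndufs6: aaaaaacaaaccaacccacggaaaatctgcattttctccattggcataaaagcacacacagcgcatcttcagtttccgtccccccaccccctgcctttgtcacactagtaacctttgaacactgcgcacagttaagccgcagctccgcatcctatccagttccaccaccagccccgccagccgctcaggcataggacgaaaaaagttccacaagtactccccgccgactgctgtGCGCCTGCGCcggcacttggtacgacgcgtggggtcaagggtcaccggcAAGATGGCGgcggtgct
Ndufs5: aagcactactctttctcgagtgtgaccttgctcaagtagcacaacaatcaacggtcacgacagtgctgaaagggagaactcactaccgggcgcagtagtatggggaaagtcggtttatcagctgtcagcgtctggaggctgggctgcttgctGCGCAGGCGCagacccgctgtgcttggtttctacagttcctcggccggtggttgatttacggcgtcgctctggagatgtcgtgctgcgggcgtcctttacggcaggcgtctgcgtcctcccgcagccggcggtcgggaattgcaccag
Ndufb10: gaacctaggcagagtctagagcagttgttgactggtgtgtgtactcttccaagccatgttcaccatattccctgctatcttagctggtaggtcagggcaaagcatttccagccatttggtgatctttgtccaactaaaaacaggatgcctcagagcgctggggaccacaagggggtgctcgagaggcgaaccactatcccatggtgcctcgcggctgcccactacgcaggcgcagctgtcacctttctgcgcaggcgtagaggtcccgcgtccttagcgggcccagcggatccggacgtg
The fold changes of these genes were -0.42 for Ndufb4, -0.41 for Ndufs6, -0.71 for Ndufs5 and -0.88 for Ndufb10; a relation between matches and fold changes was not tested.

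With 3 libraries a group, single libraries decided many calls. Without Sham library 1 the number of subunits called fell from 31 to 14 and of Ndufaf genes from 3 to 1 (Ndufaf1), while calls over all genes fell from 3408 to 1583; all 37 subunits stayed below 0 and their median was -0.41. The 14 still called were Ndufv1, Ndufs3, Ndufs8, Ndufa9, Ndufa10, Ndufa11, Ndufa12, Ndufs5, Ndufb3, Ndufb6, Ndufb7, Ndufb8, Ndufb9 and Ndufb10. With MR library 3, the one low in fat cell genes, as the sole MR library, an alternative chosen after seeing the data, 3 subunits were called (Ndufs3, Ndufb8 and Ndufb10), 36 of 37 lay below 0 and the median was -0.46.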

How the data were processed

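Per the labels' protocols, poly(A) RNA of left atria was made into paired-end libraries, 3 MR and 3 Sham. Per the submitters' processing notes, the tools used were HISAT2 2.1.0, Subread 2.0.1 (featureCounts), SAMtools, fastp, DESeq2, MultiQC and FastQC, with the build GRCm39; annotation, strand setting and other options: not given in the sources used here. The deposited table gives counts for each gene in each library, per the file headers, taken as raw because they are whole numbers with differing totals. It also holds TPM values made by the authors, per the file headers, which scale counts by gene length and library. The authors further deposited a log2 fold change, a p-value and an adjusted p-value for each gene, quoted only as the authors' own.

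Counts were tested with edgeR 4.0.16 in R 4.3.3 (glmQLFit and glmQLFTest, TMM, filterByExpr, a 2-group design without covariates), with Benjamini-Hochberg adjustment over all tested genes at 0.05. A floor of 3 counts in a library equalled 0.15 to 0.212 CPM before scaling. Alternatives used DESeq2 1.42.0, limma 3.58.1 (voom, and log2(TPM + 1) with a mean TPM of at least 1), other scalings and filters, a replicate block, and the removal of single libraries. Fits were tested on simulated counts. A chi-square test over genes gave 12.1 to 20.9 per degree of freedom for pairs of libraries of 1 group, far above sampling noise, so none was a duplicate.

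The genes and lists were chosen with earlier results of these data known. Values in every library were given for the core subunits (1 of them, counted in every total, is not reported here by name), the Ndufaf and mt-Nd genes, Ndufa4, Ndufa4l2 and Ndufab1, the 8 accessory subunits and 3 other assembly factors with the smallest p among those called, and the accessory subunits with the highest and lowest mean TPM. Classes and modules of the subunits are background knowledge, promoters are from RefSeq, and overlaps of exons were read from GENCODE vM21 by gene identifier.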

Additional observations from a re-analysis of the deposited data

How the results depend on the processing

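Scaling and single libraries moved the results most. With library totals the subunits called lower went from 31 to 15, the other assembly factors from 5 to 1 and complexes II to V from 37 to 23; the medians were -0.31 for subunits and -0.16 for Ndufaf genes, and, copies aside, Ndufa7 (0.14), Ndufb2 (0.11), Ndufa3 (0.016) and mt-Nd3 (0.067) changed sign. By that scaling 4025 genes were higher and 574 lower in all, against 1793 and 1615. On log2(TPM + 1), and with 0.1 in place of 1, 5262 and 5338 genes were called (5062 and 5138 higher, 200 lower in both), with 3 and 3 subunits, 0 and 0 Ndufaf genes, 0 and 0 other assembly factors and 4 and 4 genes of complexes II to V. Median fold changes there were -0.17 and -0.17 for subunits and -0.038 and -0.046 for Ndufaf genes. Copies aside, the sign changed in Ndufaf3 (0.11 and 0.11), Ndufaf7 (0.066 and 0.072), Ndufb2 (0.20 and 0.24), mt-Nd3 (0.23 and 0.23) and mt-Nd5 (0.11 and 0.11). Ndufa7 (0.26), Ndufa3 (0.15) and Ndufa1 (4e-04) changed sign too, with values given for the pseudocount of 1 only. With either pseudocount 33 of the 37 subunits stayed below 0. These scalings differ by construction in the gene level they hold constant between libraries.

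Scaled to the cardiomyocyte markers (chosen after seeing the data), 9986 genes were called (9878 higher, 108 lower), with 3 subunits, 0 Ndufaf genes, 3 other assembly factors, 2 mt-Nd genes and 4 genes of complexes II to V, all higher. The medians were 0.065 for subunits and 0.22 for Ndufaf genes. Signs turned, among others, for Ndufa7 (0.53), Ndufa3 (0.39), Ndufa1 (0.23), Ndufs1 (0.013), Ndufv1 (0.0197), Ndufs7 (0.21), Ndufs8 (0.022), Ndufab1 (0.14), Ndufa12 (0.044), Ndufa10 (0.039), Ndufb3 (0.11), Ndufb2 (0.49), Ndufaf2 (0.21), Ndufaf3 (0.36), Ndufaf4 (0.044), Ndufaf5 (0.021), Ndufaf6 (0.24), Ndufaf7 (0.31), Ndufaf8 (0.22), mt-Nd1 (0.083), mt-Nd2 (0.22), mt-Nd3 (0.45), mt-Nd4 (0.17), mt-Nd5 (0.36), mt-Nd6 (0.039), Tmem70 (0.092), Ecsit (0.16) and Tmem126b (0.23). Of these, Ndufa7, Ndufa3, Ndufb2, mt-Nd3 and mt-Nd5 passed edgeR's threshold (adjusted p = 0.00755, 0.0224, 0.0271, 0.0331 and 0.0201). Ndufa4l2, above 0 on the TMM scale too, also passed with this scaling, at 0.73 (edgeR adjusted p = 0.0106).

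Leaving out 1 library at a time gave 1583 to 3453 calls over all genes, 14 to 30 subunits, 1 to 3 Ndufaf genes, 1 to 4 other assembly factors, 0 to 1 mt-Nd genes and 22 to 36 genes of complexes II to V; mt-Nd3 ranged from -0.31 to 0.086. The lowest all-gene counts came from dropping Sham library 1 (1583), Sham library 2 (1897) or MR library 2 (1941). With MR represented by its library 3 alone (chosen after seeing the data, the lone library assumed to vary like the Sham libraries) the calls were 976 over all genes, 3 subunits, 0 Ndufaf genes, 0 other assembly factors and 11 genes of complexes II to V, and Ndufa4l2 was at -0.19. For the mt-Nd genes, 3 were called without the filter on low counts, 3 by DESeq2 and 1 by limma-voom. The shares of all genes called in these settings are not given here, so the counts lack a background. With medians in place of means, the difference of subunits minus Ndufaf genes moved by -0.18 between groups. Libraries of the same replicate number correlated at -0.0033, -0.0215 and -0.1998, and those of different numbers at -0.1681 to 0.1931. With 3 libraries centred in each group these values are tied together and cannot settle whether the numbers pair the libraries. With the number as a replicate block 31 subunits and 3 other assembly factors were called. The cause of the shifts with left-out libraries was not tested. At 14124407 to 20039490 counts per library depth limits Ndufaf6 most among the Ndufaf genes, at 2.66 to 3.41 CPM in the group means.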
